A study of Homo sapiens with 148 samples.

Results

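The S100 genes encode small EF-hand calcium-binding proteins, and 10 of them were followed through the differentiation of H9 cells, an established human embryonic stem cell (hESC) line, into pancreatic cells. The 10 genes, S100A3, S100A4, S100A6, S100A8, S100A9, S100A10, S100A11, S100A13, S100A14 and S100A16, were taken by name from a table of 49085 gene names, and the list was chosen from measured values of this same table, so that their levels are given as a description with no test. All 10 were found, each with 1 entry. The table holds 1 mean TPM (a level per transcript length, scaled to a fixed total per stage) for each of 6 stages, averaged by the authors over 2 independent differentiations per stage, so no error can be given for any value and no difference was tested.

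All cells carried the WT genotype. The hESCs were undifferentiated, and the other 5 stages carry the treatment label Pancreatic differentiation: definitive endoderm (DE, day 4, after Activin A and CHIR99021), primitive gut tube-like cells (PGT, day 7, after KGF), pancreatic progenitors (PP, day 14, after KGF, Sant1, retinoic acid, LDN193189 and PdBU), organoids made to contain β cells (SC-β, day 35, after a course that ended in Alk5i II and T3), and a stage labelled PH that the sources used here neither define nor date. Differentiation was carried out in spheroids from a single cell line, and cultures were sequenced whole, so the values are averages over all cell types present. The paper does not state the form of the hESC and PH cultures that were sequenced. Of the 10 stage markers reported, 9 were highest in the stage they mark. NKX6-1 was highest in SC-β rather than PP, and PDX1 reached only 3.17 TPM in PP. No marker list exists here for PH: it had 1437 TPM of VIM and 109.8 TPM of HES5, with 0.017 TPM of PDX1.

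Most S100 proteins, though not all, form dimers that open a binding face when calcium is bound. These pass the calcium signal on by gripping target proteins such as annexins, myosin and AHNAK. Some are also released from cells, where S100A8 and S100A9 together form calprotectin, which binds zinc and manganese and signals through TLR4 and RAGE (encoded by AGER). Others are used as lineage markers: S100A4 for mesenchymal cells, S100A8 and S100A9 for myeloid cells and stressed squamous epithelium, and S100B, which is not among the 10, for glia.

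The 10 genes summed to 442.5, 516.5 and 521.2 TPM in hESCs, DE and PGT, to 342.0 in PP and 863.6 in SC-β, and to 76.9 in PH. The sum was thus highest in SC-β and lowest in PH. S100A11 held the largest share of it in hESCs (50.2%), PGT (50.8%), PP (46.6%) and PH (49.6%), S100A10 did in DE (27.6%), and S100A9 did in SC-β (44.7%). Without S100A8 and S100A9 the SC-β sum was 371.4 TPM, below those of hESCs, DE and PGT. Of the 10 genes, 5 were at 1 TPM or more in every stage and 3 (S100A3, S100A8 and S100A9) were listed at 0 in at least 1 stage. In bulk samples, fewer cells of a type and less RNA per cell cannot be told apart.

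**Figure D1:**
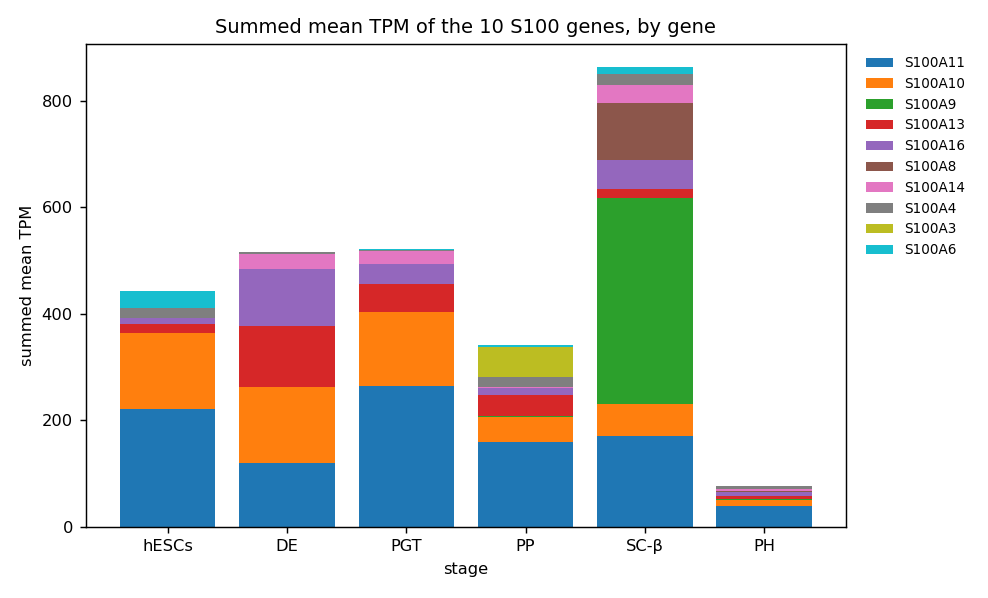
Bars stack the mean TPM of the 10 S100 genes in each stage (y axis, summed mean TPM on a linear scale; colours, genes). The SC-β bar reaches 863.6 TPM, of which S100A9 and S100A8 make up 57.0%, and the PH bar reaches 76.9 TPM.

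**Figure D2:**
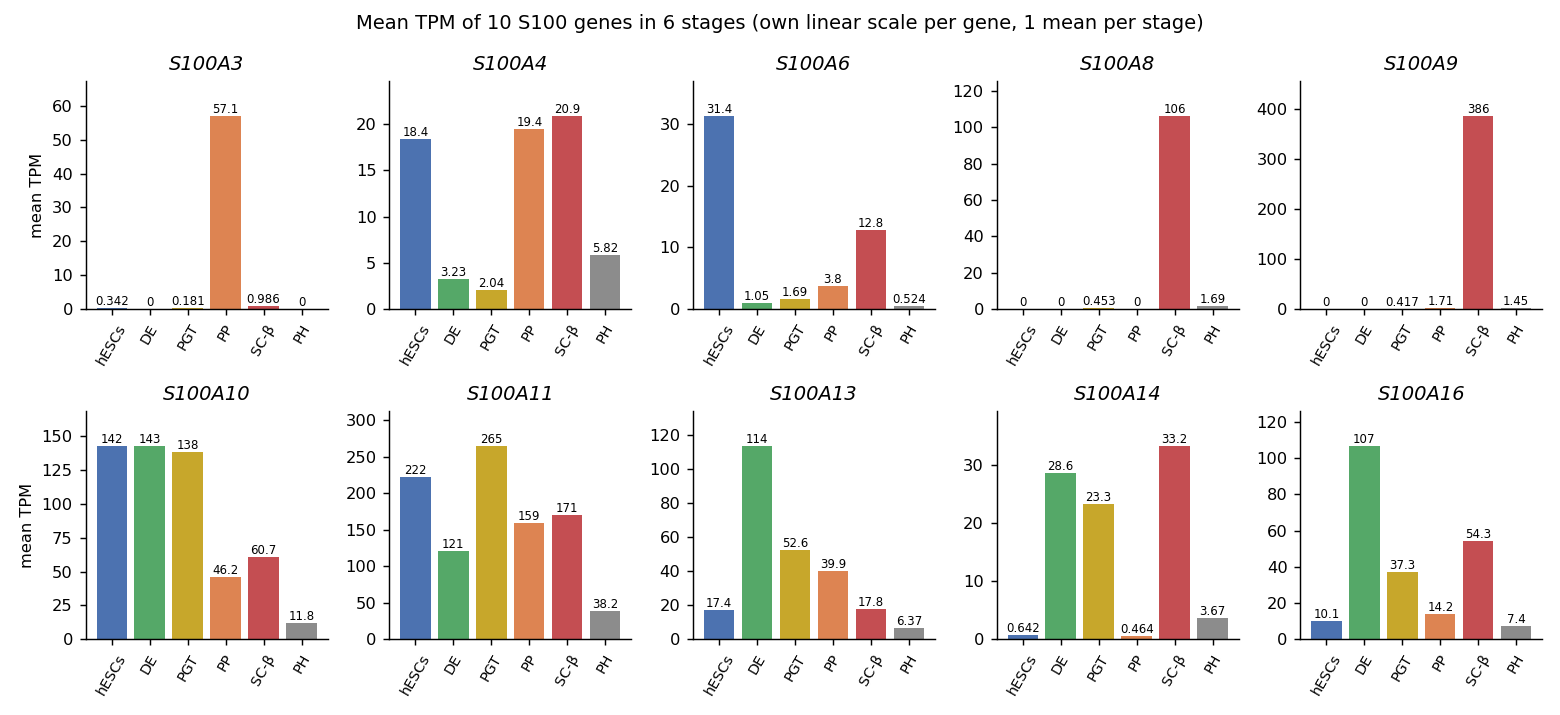
Bars show the authors' mean TPM of each S100 gene in each stage, 1 mean per bar and no error available, on a linear scale of its own per gene that starts at 0. S100A8 and S100A9 stand almost wholly in SC-β, S100A3 in PP, and S100A13 and S100A16 are highest in DE.

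S100A8 and S100A9, the calprotectin subunits, were at 1.71 TPM or less in all stages but SC-β. S100A9 was listed at 0 in hESCs and DE and had 0.417 TPM in PGT, 1.71 in PP, 1.45 in PH and 385.8 in SC-β. S100A8 was listed at 0 in hESCs, DE and PP and had 0.453 TPM in PGT, 1.69 in PH and 106.4 in SC-β. In SC-β S100A9 ranked 177 and S100A8 ranked 757 among the 49085 gene names, and S100A9 stood above INS, the insulin gene, at 298.1 TPM. The S100A9 to S100A8 ratio of TPM was 3.63 in SC-β, the only stage where both exceeded 2 TPM. From PP to SC-β the log2 ratio of S100A9, computed as log2((TPM + 1)/(TPM + 1)), was 7.16, which ranked 3 from the top among 25090 gene names at 1 TPM or more in either stage.

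The stretches of 120 bases before the start sites of S100A9 and S100A8 are shown because both genes were high in the same stage. Capitals mark TATAAA, the TATA box core, which lies 29 bases before the start site in both (RefSeq, GRCh38.p14, written 5′ to 3′ on the strand of the gene).
S100A9 (chr1:153357734-153357853, plus strand): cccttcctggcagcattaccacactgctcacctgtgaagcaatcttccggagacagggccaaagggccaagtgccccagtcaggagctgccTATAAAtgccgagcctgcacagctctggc
S100A8 (chr1:153391074-153391193, minus strand): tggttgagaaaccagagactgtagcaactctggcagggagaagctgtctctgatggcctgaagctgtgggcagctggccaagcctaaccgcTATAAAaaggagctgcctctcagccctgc
Among the start sites of the 10 genes, TATAAA was found in the windows of 4 (S100A4, S100A8, S100A9 and S100A13), against 11.5% of all 35116 promoter windows. Each window ran from 250 bases before to 50 after the start site, and both strands were read. The match is a description of letters and not of factor binding.

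The myeloid markers were split in SC-β, where S100A8 and S100A9 were high. PTPRC (CD45, carried by all white blood cells) had 0.045 TPM, CD14 had 0.141 and ITGAM had 0.244. Of the 6 myeloid markers, 4 were highest in SC-β, against 38.8% of 28202 gene names highest there. The summed level of the 6 ran from 0.557 to 3.87 TPM in the other 5 stages. It was 70.2 TPM in SC-β, of which LYZ (lysozyme, also made by secretory epithelia) gave 65.9. CSF1R had 2.01 TPM and CD68 had 1.90, each its highest value of the 6 stages. The part of myeloid cells in the S100A8 and S100A9 levels was not tested. Of the receptors of secreted calprotectin or its subunits, TLR4 had 1.51 TPM in SC-β and no more than 0.338 elsewhere, and AGER ran from 2.16 TPM in hESCs to 11.3 in DE, with 8.64 in SC-β. BSG (basigin, a receptor of S100A9) was abundant in every stage, from 130.6 TPM in PH to 369.5 in DE, with 176.4 in SC-β.

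**Figure D3:**
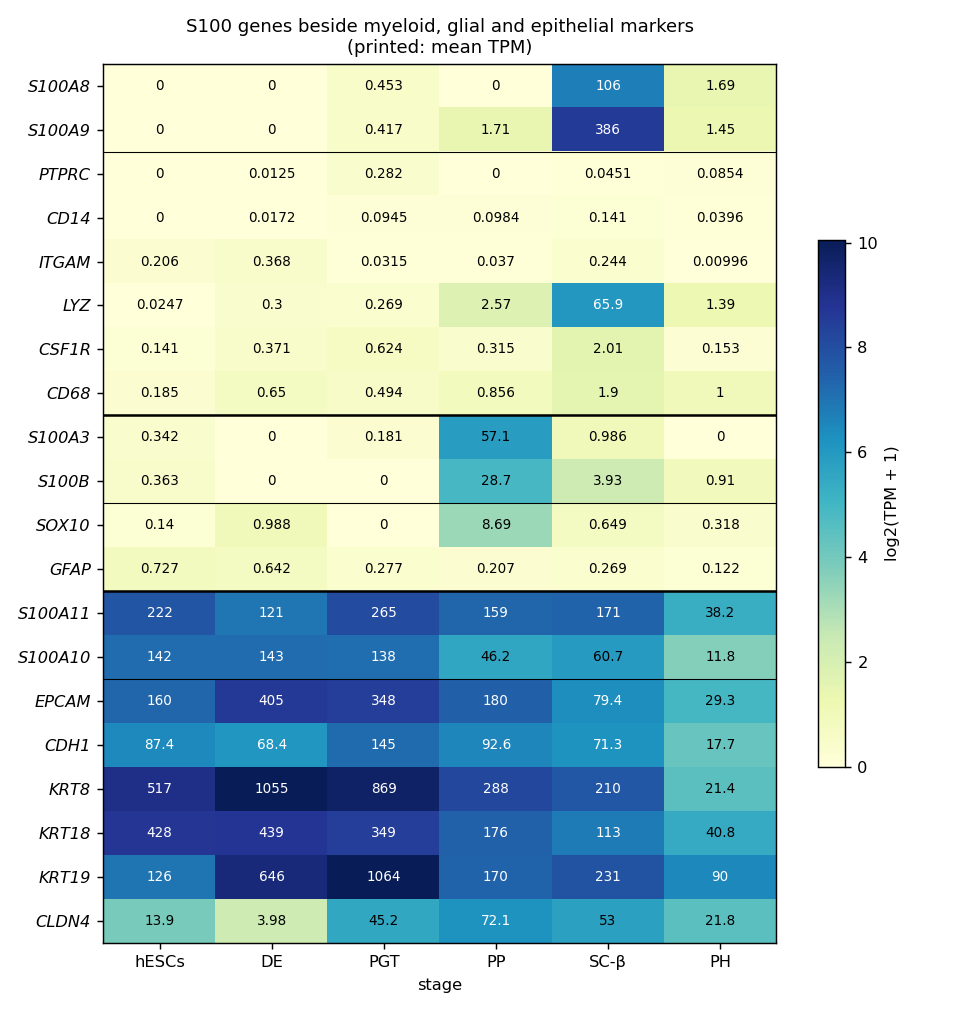
Each cell gives the mean TPM of a gene (row) in a stage (column), and the colour is log2(TPM + 1). S100A8 and S100A9 sit above 6 myeloid markers, S100A3 and S100B above 2 glial markers, and S100A11 and S100A10 above 6 epithelial markers. PTPRC, CD14 and ITGAM stay under 0.4 TPM in every stage, and SOX10 is highest in PP as S100A3 and S100B are. Of the 6 epithelial markers, 5 are lowest in PH, against 33.1% of 28202 gene names, ties included.

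S100A10 and S100A11 were the most abundant of the 10 on average over the stages and passed 10 TPM in every stage. S100A10 is the light chain that joins annexin A2 into a heterotetramer at the plasma membrane. It had 142.3, 142.7 and 138.5 TPM in hESCs, DE and PGT, 46.2 in PP, 60.7 in SC-β and 11.8 in PH. As deposited, the 3 early stages were level with each other to within 0.04 on the log2 scale between consecutive stages. From hESCs to DE the log2 ratio was -0.48 after median-ratio rescaling of the stages. It was -0.15 with totals recomputed without mitochondrial and structural RNAs. The step from PGT to PP was -1.56 as deposited. ANXA2, which encodes its partner annexin A2, had 439.8, 231.5, 288.9, 105.0, 257.5 and 140.6 TPM in the same order. ANXA2 exceeded S100A10 in every stage, by a ratio of 1.62 in DE to 4.24 in SC-β and of 11.9 in PH. In the step from PGT to PP, ANXA2 had a log2 ratio of -1.45.

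S100A11, which binds annexin A1 and is also called calgizzarin, had 222.0, 120.6 and 264.8 TPM in hESCs, DE and PGT, 159.3 in PP, 170.7 in SC-β and 38.2 in PH. It was lower in DE than in the stages before and after it, with a log2 ratio of -0.87 to hESCs and a step of 1.13 from DE to PGT. Its pseudogenes S100A11P1 and S100A11P2 reached at most 0.642 and 0.751 TPM in any stage, and how reads shared with them were assigned is not given in the sources used here. ANXA1 followed another course, with 64.1, 0.436 and 0.151 TPM in hESCs, DE and PGT, 3.12 in PP, 388.9 in SC-β and 103.3 in PH.

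S100A13, S100A14 and S100A16 were the members higher in DE than in hESCs by 2-fold or more. S100A13, which takes part in the release of FGF1 and IL1A without a signal peptide, had 17.4 TPM in hESCs and 113.7 in DE. It then stood lower at each day sampled, with 52.6 (PGT), 39.9 (PP) and 17.8 (SC-β), and was at 6.37 in PH. Its cargo genes were low throughout, with at most 1.74 TPM of FGF1 and 1.60 TPM of IL1A, both in SC-β.

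S100A16, a widely expressed member, had 10.1, 106.7 and 37.3 TPM in hESCs, DE and PGT, 14.2 in PP, 54.3 in SC-β and 7.40 in PH. S100A14, found mainly in epithelia, had 0.642, 28.6 and 23.3 TPM in hESCs, DE and PGT, 0.464 in PP, 33.2 in SC-β and 3.67 in PH. Both were thus high in DE, low in PP and high again in SC-β, and the log2 ratio of S100A14 was 4.17 from hESCs to DE, -4.05 from PGT to PP and 4.55 from PP to SC-β. AHNAK, a giant scaffold protein that S100A10 with annexin A2 binds, had the profile closest to S100A14 among gene names at 10 TPM or more in some stage. It was singled out after its values were seen, and had 11.5, 134.7, 108.4, 12.6, 201.5 and 34.7 TPM in hESCs, DE, PGT, PP, SC-β and PH. The 6 epithelial markers summed to 2616 TPM in DE, 978.6 in PP and 756.7 in SC-β, and 1 of them, KRT19, was higher in SC-β (230.6 TPM) than in PP (170.5). Their part in these levels was not tested.

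S100A6 and S100A4 were high in hESCs and low in DE. S100A6, also called calcyclin, had 31.4, 1.05 and 1.69 TPM in hESCs, DE and PGT, 3.80 in PP, 12.8 in SC-β and 0.524 in PH. From hESCs to DE its log2 ratio was -3.98, which ranked 41 from the bottom among 22514 gene names. S100A4, which binds nonmuscle myosin IIA (MYH9) and is also called FSP1, had 18.4, 3.23 and 2.04 TPM in hESCs, DE and PGT, 19.4 in PP, 20.9 in SC-β and 5.82 in PH. S100A4 was highest in SC-β as deposited, in hESCs after median-ratio rescaling of the stages, and in PP with totals recomputed without mitochondrial and structural RNAs, so no order among these 3 stages can be given. MYH9 had 172.2, 152.3, 191.3, 138.3, 146.2 and 43.8 TPM in hESCs, DE, PGT, PP, SC-β and PH. The 6 mesenchymal markers summed to 309.2, 110.1 and 87.3 TPM in hESCs, DE and PGT, to 493.1 in PP and 3161 in SC-β, and to 2289 in PH. Their sum was thus lowest in PGT, as the S100A4 level was. It was highest in SC-β, while S100A4 had no clear order among hESCs, PP and SC-β. It was also high in PH, where S100A4 was low. Their part in the S100A4 level was not tested.

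S100A3, a cysteine-rich member known from the hair cuticle, was under 1 TPM in all stages but PP. It was listed at 0 in DE and PH, and had 57.1 TPM in PP against 0.342 in hESCs, 0.181 in PGT and 0.986 in SC-β. Its PP level was 57.9 times the next highest stage, and its log2 ratio from PGT to PP, 5.62, ranked 6 from the top among 21378 gene names. From PP to SC-β it was -4.87 and ranked 2 from the bottom among 25090. S100B, the glial family member, also had its highest level in PP, at 28.7 TPM, with 3.93 in SC-β, 0.910 in PH, 0.363 in hESCs and 0 listed in DE and PGT. The S100A3 to S100B ratio of TPM was 1.99 in PP and 0.251 in SC-β.

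Of the 2 markers of Schwann cells and glia reported, SOX10, a neural crest and glial transcription factor, was highest in PP, at 8.69 TPM against at most 0.988 in the other stages. GFAP, of astrocytes and other glia, was at 0.207 TPM in PP and highest in hESCs, at 0.727. Their part in the S100A3 level was not tested.

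S100A3 lies within the gene span of S100A4 on the same strand, over 1930 bases, and the exons of both share 0 bases in GENCODE v44. S100A3 and S100A4 had a ratio of 2.94 in PP and at most 0.089 in the other stages. Their start sites are shown as a pair of neighbours with different profiles, and the TATAAA in capitals lies 31 bases before the S100A4 start. It was not found in the S100A3 window.
S100A4 (chr1:153545807-153545926, minus strand): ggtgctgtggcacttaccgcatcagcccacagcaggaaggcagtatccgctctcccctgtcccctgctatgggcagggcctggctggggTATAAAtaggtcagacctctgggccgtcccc
S100A3 (chr1:153549259-153549378, minus strand): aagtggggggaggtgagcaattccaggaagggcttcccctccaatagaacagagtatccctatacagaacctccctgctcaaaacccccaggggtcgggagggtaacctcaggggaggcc
GGGCGG, an Sp1-type GC box, was in the windows of 5 of the 10 genes (S100A3, S100A6, S100A9, S100A10 and S100A11) and of 45% of all windows. TGANTCA, the AP-1 site, was in 1 of the 10, S100A3, and in 7.71% of all windows, and CACGTG, the E-box, in 0 of the 10 and in 7.26%. No match says only that these letters are not in this window.

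All 10 genes lie on chromosome 1 in 2 blocks (GRCh38, GENCODE v44). S100A10 (chr1:151982915-151993859) and S100A11 (chr1:152032506-152047907) sit next to each other on the minus strand between THEM4 and TCHHL1. The other 8 lie in a block of 14 protein-coding S100 genes over 274.2 kb (chr1:153357854-153632039) between PGLYRP4 and CHTOP. Within it S100A16, S100A14 and S100A13 follow each other and were highest in DE, SC-β and DE. S100A9 and S100A8, both highest in SC-β, flank S100A12, which was not analysed here. The flanking genes had other levels, with CHTOP between 41.1 and 54.8 TPM in all 6 stages and PGLYRP4 at no more than 0.914. TCHHL1 had 1.99 TPM in SC-β and at most 0.019 elsewhere, and THEM4 ran from 3.18 to 13.3 TPM. S100A13 overlaps S100A1 on the opposite strand by 3435 bases with 235 exonic bases in common, and whether strand was used in counting is not given in the sources used here. S100A1 was at most 2.21 TPM, in DE, which is where S100A13 was highest.

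**Figure D4:**
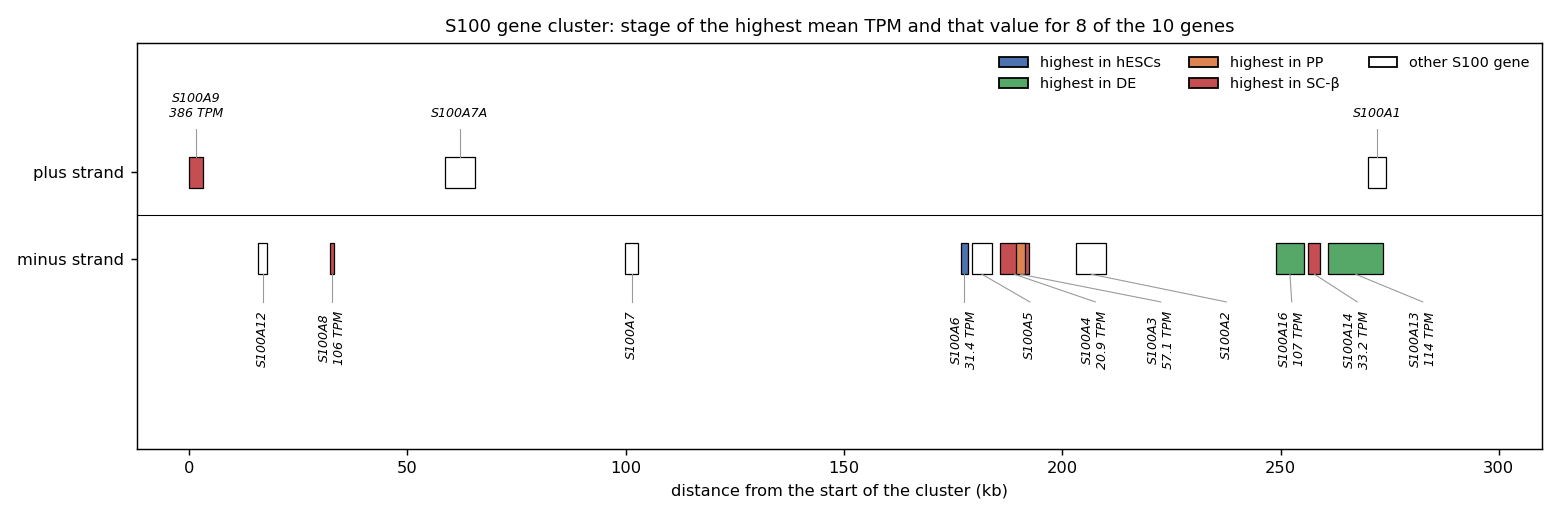
Boxes mark the 14 protein-coding S100 genes of the larger block to scale, by strand, with the distance from its start in kb on the x axis. Colours and labels give the stage and size of the highest mean TPM for the 8 genes followed here, open boxes are other S100 genes, and the S100A3 box lies inside that of S100A4. The 3 members at the right end are highest in DE, SC-β and DE, S100A9 and S100A8 at the left end in SC-β, and the colour of S100A4 depends on the scaling.

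The step from hESCs to DE is where the endoderm forms. In the comparisons that follow, a number given beside a gene name is its log2 ratio. Of the 10 S100 genes, 7 reached 1 TPM in either stage, and 3 of these were higher by 2-fold or more (S100A13, S100A14 and S100A16) and 2 lower (S100A4 and S100A6). Of all 22514 gene names counted, 28.2% were higher and 5.55% lower, or 16.2% and 10.7% after median-ratio rescaling. S100A13 had a log2 ratio of 2.64 and S100A16 of 3.28, S100A4 had -2.19, and the median of the 7 genes above 0 in both stages was 0.00 against 0.58 for all genes counted. S100A11, at -0.87, was past 2-fold lower under both other scalings, at -1.35 and -1.03.

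In the step from DE to PGT, 7 of the 10 were counted, with 1 higher (S100A11) and 2 lower (S100A13 at -1.10 and S100A16 at -1.49), against 4.94% and 10.6% of 22862 gene names. After median-ratio rescaling 1 member was lower, S100A16, since S100A13 was at -0.95, against 8.64% of gene names. The median of the 7 was -0.29 against -0.19 for all genes.

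In the step from PGT to PP, 9 were counted. S100A3 and S100A4 (at 2.75) were higher, against 6.3% of 21378 gene names, and S100A10, S100A14 and S100A16 (-1.34) were lower, against 7.46%. With totals recomputed without mitochondrial and structural RNAs, 4 were higher, S100A6 and S100A9 being added, against 8.38% of gene names. The median of the 9 above 0 in both stages was -0.39 against -0.10.

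In the step from PP to SC-β, all 10 were counted, and 5 were higher (S100A6 at 1.52, S100A8, S100A9, S100A14 and S100A16 at 1.87), against 20.7% of 25090 gene names. S100A3 and S100A13 (-1.12) were lower, against 1.84%. S100A4 and S100A11 each had a log2 ratio of 0.10, which turned negative under both other scalings. The median of the 10 was 0.95 against 0.45 for all genes counted, and 0.39 for the 9 above 0 in both stages, which leave out S100A8.

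From start to end, in SC-β against hESCs, 4 of the 9 counted were higher (S100A8, S100A9, S100A14 at 4.38 and S100A16 at 2.32), against 42.4% of 25644 gene names, or 29.4% after median-ratio rescaling. S100A6 (-1.23) and S100A10 (-1.22) were lower, against 7.08%, or 13.3% after rescaling. S100A13, at 0.03 as deposited, ended near its hESC level after its DE level, and S100A11 was at -0.38. Median-ratio rescaling divides hESC levels by 0.827 and SC-β levels by 1.19, so the S100A13 return depends on the scaling.

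The PH stage had the lowest level of 5 members alone and of S100A3 in a tie at 0 with DE, against 33.1% of 28202 gene names lowest there, ties included. Against PP, 6 members were lower by 2-fold or more (S100A3, S100A4 at -1.58, S100A6 at -1.65, S100A10 at -1.88, S100A11 at -2.03 and S100A13 at -2.47), where 12.8% of 21944 gene names were lower. S100A8 and S100A14 (1.67) were higher, where 11.5% were. After median-ratio rescaling those shares were 9.67% lower and 14.9% higher, and with totals recomputed without mitochondrial and structural RNAs 11.6% and 16.6%, while 6 members were lower and 2 higher under each.

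Against SC-β, 9 of 9 members counted were lower in PH, from -1.35 for S100A13 to -7.30 for S100A9, where 28.1% of 25657 gene names were lower and 4.6% higher. The S100A9 ratio was the lowest of all 25657. After median-ratio rescaling 8 members were lower, S100A13 being at -0.90, and 16.1% of gene names were lower and 8.42% higher. With totals recomputed without mitochondrial and structural RNAs 10 were lower, and the shares were 22.9% and 8.21%. Both PH comparisons use the same PH mean, and each step above shares a stage with the next, so they are not independent of each other.

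Other values moved with the PH levels. The 6 epithelial markers summed to 221.0 TPM in PH against 756.7 to 2820 in the other stages, with KRT8 at 21.4 TPM and EPCAM at 29.3. The 4 neural progenitor markers (PAX6, SOX1, HES5 and NES) were all highest in PH, against 13.5% of 28202 gene names. They summed to 268.3 TPM there against 28.2 to 123.2 in the other stages. A set of 6 structural RNA names, among them RN7SK and RN7SL1, took 50.9% of the PH total and 31.8% to 42.2% of the others. With totals recomputed without them and without mitochondrial genes, the members summed to 158.4 TPM in PH, still the lowest, and to 1353 in SC-β. The part of these markers in the PH levels was not tested.

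**Figure D5:**
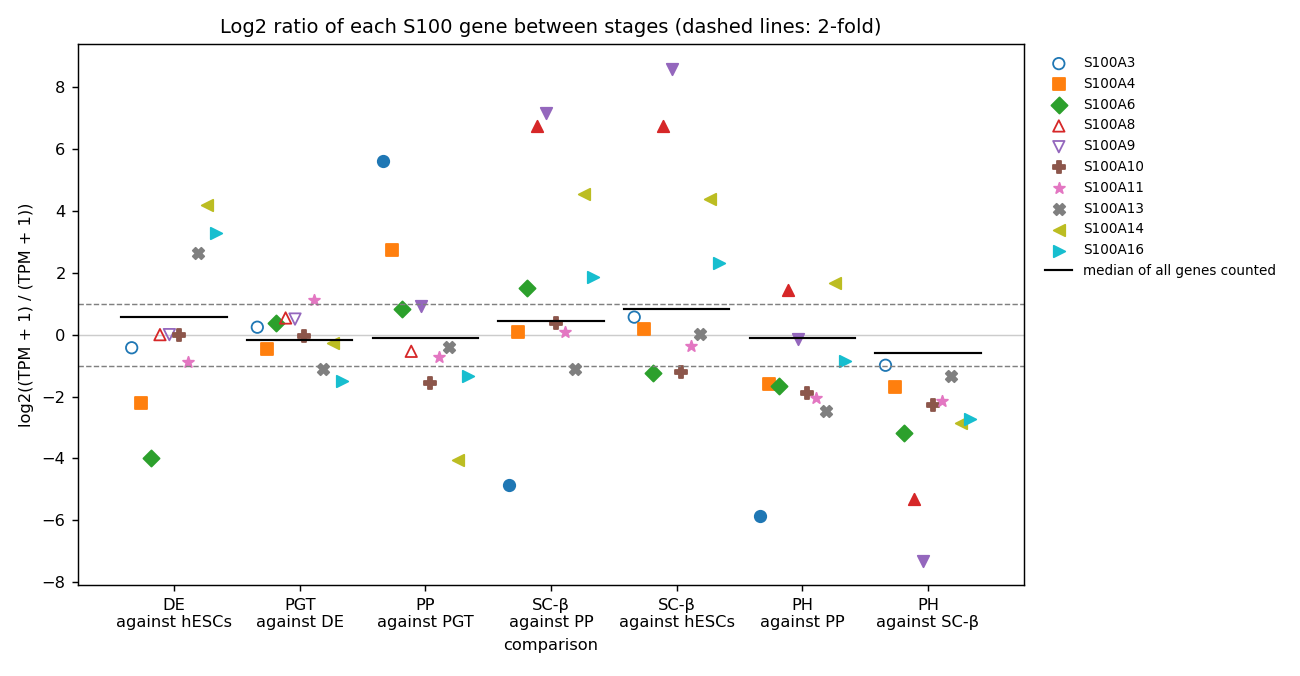
Points are log2((TPM + 1)/(TPM + 1)) of each S100 gene (y axis) in 7 comparisons of stages (x axis), open where the gene is under 1 TPM in both stages, with dashed lines at 2-fold and a black bar at the median of all genes counted. Points of a gene listed at 0 in a stage (S100A3, S100A8 and S100A9 in some comparisons) depend on the added 1 TPM. S100A9 reaches 7.16 in SC-β against PP and -7.30 in PH against SC-β, where all filled points lie under the lower line.

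Of the other 11 S100 names considered, 8 were listed in the table, 7 reached 1 TPM in some stage and 2 reached 10 TPM, and S100A12, S100A7A and S100A7L2 were not analysed here. The 3 highest were S100B in PP, S100Z at 10.1 TPM in DE, and S100G (calbindin D9k, which carries calcium through the intestinal cell) at 5.60 TPM in SC-β. S100A7, the skin protein psoriasin, had 3.02 TPM and S100P had 3.42 TPM in SC-β, both singled out after their values were seen. From PP to SC-β 3 of the 6 counted were higher (S100A7, S100G and S100P) and 2 lower (S100B and S100Z), against 20.7% and 1.84% of all gene names.

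The 18 partners and receptors of S100 proteins all reached 1 TPM in some stage. The 3 with the highest levels were ANXA2, ANXA1 and BSG. From PP to SC-β 9 of the 18 were higher by 2-fold or more and 0 lower, against 20.7% and 1.84% of all gene names. After median-ratio rescaling 6 were higher, against 14.3% of all gene names. As deposited, the median of the 18 was 0.96 against 0.45 for all genes, and ANXA1 had the log2 ratio 6.57, ANXA2 1.29 and AHNAK 3.89. From DE to PGT 0 of the 15 counted were past 2-fold in either direction, against 4.94% of all gene names higher and 10.6% lower. With a pseudocount of 0.1 TPM 2 were lower, against 17.3% of all gene names. With totals without mitochondrial and structural RNAs 2 were also lower, against 11.1%. In PH against SC-β 10 of 18 were lower and 0 higher, against 28.1% and 4.6% of all gene names. After median-ratio rescaling 1 was higher, against 8.42% of all gene names.

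The 14 calmodulin and other EF-hand genes reported, which share the calcium-binding fold, all reached 10 TPM in some stage. The 3 highest of these were CALM2 (359.4 TPM in PGT) and CALM3 (268.4 in DE), which encode calmodulin, and RCN1 (140.0 in PGT), which encodes the endoplasmic reticulum protein reticulocalbin. From PP to SC-β 1 of the 14 was higher by 2-fold or more and 2 were lower, against 20.7% and 1.84% of all gene names, and the median was -0.05. In PH against PP 1 was higher and 5 were lower, against 11.5% and 12.8% of all gene names. After median-ratio rescaling 3 were lower, against 9.67% of all gene names. With totals without mitochondrial and structural RNAs 3 were also lower, against 11.6%. As deposited, the 14 had a median of -0.59 in PH against PP, and the 8 S100 members above 0 in both stages had -1.62. Of the 14, 8 were lowest in PH, as were 9 of the 18 partners and receptors, against 33.1% of all gene names, ties included.

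The likeness of stage profiles was measured as the root mean square difference over the 6 stages of log2(TPM + 1), each gene centred on its own mean. Among the 45 pairs of members, S100A10 and S100A11 were closest (0.69), followed by S100A8 and S100A9 (0.80) and by S100A13 and S100A16 (0.92). Outside the family, the genes closest to S100A11 were CDH1 (E-cadherin, 0.22), EEF1B2 (0.23) and the pseudogene ENO1P1 (0.25). CDH1 had 87.4, 68.4, 145.4, 92.6, 71.3 and 17.7 TPM in hESCs, DE, PGT, PP, SC-β and PH. It was low in DE and highest in PGT as S100A11 was as deposited, but the stage of the highest S100A11 value depends on the scaling. The genes closest to S100A10 were SLC16A1 (the lactate transporter MCT1, 0.22), ZNF600 (0.26) and GALNT6 (0.29).

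The genes closest to S100A9 were farther off: PYGM (muscle glycogen phosphorylase, 0.84), INS (0.88) and CYP1A1 (0.90). All 3 were highest in SC-β, PYGM at 189.1 TPM and CYP1A1 at 65.9. For S100A13 they were HLA-DQB1 (0.30), TRPV4 (a calcium channel, 0.35) and FAM83H (0.36), which were highest in DE at 12.6, 11.3 and 28.8 TPM. S100A8, taken up after its values were seen, was closest to KRT13 (0.37), TYRP1 (0.51) and MUC16 (0.53). KRT13, a keratin of stratified squamous epithelium, had 109.9 TPM in SC-β, 3.66 in PH and at most 0.068 in the other stages. In SC-β TYRP1 had 49.1 TPM and the mucin MUC16 had 41.6. The cell types behind these levels were not tested.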

How the data were processed

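RNA-seq was made from 12 of the 148 samples of the series, 2 per stage. Total RNA was extracted with Trizol, ribosomal RNA was removed, and strand-specific libraries were sequenced. The authors aligned reads to hg38 with HISAT2 2.2.0, computed TPM with StringTie 2.1.6, and deposited 1 mean TPM per stage, and the annotation is not given in the sources used here. Mean TPM keeps no depth and no replicate spread, so counting error, errors and p-values could not be computed.

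The 50451 entries were summed by name (231 names repeat; each S100 member has 1 entry). Changes are log2((TPM + 1)/(TPM + 1)), counted at 2-fold among names at 1 TPM or more in either stage, with Python 3.11.15, numpy 2.4.6 and pandas 2.3.3, and the counting was tested on simulated data. Alternatives were a pseudocount of 0.1 TPM, median-ratio rescaling, totals without mitochondrial and structural RNAs, a 4-fold threshold, no low limit and the highest entry per name. The members and gene lists were chosen with earlier results of these data known. Genes named by rule were all members, the 3 highest of each list, the 3 closest profiles of the 4 members with the highest mean, and flanking genes. Profiles were sought among names at 10 TPM or more in some stage, without clone-type names. Outside this rule, marker genes and genes tied to a member in the text were named, among them MYH9, TLR4, AGER, FGF1, IL1A and S100A1. Further genes were singled out after their values were seen, as stated where they appear. Positions come from GENCODE v44 and promoter windows, matched by symbol for 10 of 10 members, from RefSeq (GRCh38.p14). Protein sequences were not used here. Some genes of the marker and EF-hand lists are not reported here, and the counts of those lists leave them out.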

Additional observations from a re-analysis of the deposited data

How the results depend on the processing

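No paired analysis was possible because the table gives 1 mean per stage and no replicate values, and no replicate could be left out for the same reason. Of 84 counts of members past 2-fold under the alternatives, 73 stayed within 1.5 times, a limit that lets 2 become 3. The 14 counts with the highest entry per name could not move, since each member has 1 entry. Nor could the 14 counts without the low limit: values under 1 TPM differ by less than 2-fold once 1 TPM is added. Both sets are among the 73 and say nothing about how stable the counts are. With a 4-fold threshold, PGT against DE had 0 members higher and 0 lower, against 1.33% and 2.31% of all gene names. PP against PGT had 1 lower, against 1.56%. SC-β against PP had 3 higher and 1 lower, against 3.36% and 0.255%. SC-β against hESCs had 0 lower, against 2.07%. PH against PP had 0 higher and 3 lower, and the shares of all gene names are not given here, so these counts have no background beside them. Median-ratio rescaling left 1 lower in PGT against DE, against 8.64% of all gene names. In PP against PGT, 4 were higher both with a pseudocount of 0.1 TPM and with totals without mitochondrial and structural RNAs. The shares of all gene names there were 9.46% and 8.38%. These totals raised the summed TPM of the members to 752.2, 787.1 and 842.6 in hESCs, DE and PGT, to 608.0 in PP, 158.4 in PH and 1353 in SC-β, because the same reads are divided by a smaller total. No log2 ratio past 2-fold changed sign. Median-ratio rescaling moved the median of all genes by -0.37 in DE against hESCs, by 0.40 in PH against SC-β and by less in the other comparisons. The stage of the highest value changed for S100A4, S100A10 and S100A11, whose leading stages lie close together as deposited. Without PH, a choice made after seeing the data, the ratio of highest to lowest level was 3.09 rather than 12.1 for S100A10, and the lowest level of S100A11 was in DE. Mean TPM carries no depth, so the precision of low values such as those of S100A8 before SC-β is unknown.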
